A study of Mus musculus with 54 samples.

Results

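The tumours described here are 10 Lewis lung carcinomas (LLC), a transplantable mouse tumour line, that grew in old male C57BL/6 mice (736 days). They were chosen as the old arrays of the last run of consecutive array numbers in the raw table, which makes 10 of the 54 arrays and 10 of the 19 old ones, and they are named O1 to O10 in the order of those numbers. Each array is Illumina's Mouse WG-6 bead chip and carries the total RNA of 1 tumour. The arrays set beside them hold tumours of 18 adolescent hosts (68 days), 10 young adult hosts (143 days) and 7 middle-aged hosts (551 days) of the same sex and strain. The comparison asked how far tumours of 1 host age and 1 run of consecutive array numbers differ from each other, and which groups of genes vary together. Per the submitters' design text the tumours are biological replicates that were run one by one, and the p-values below measure only the spread between these samples. All mice carried the same transplanted line, and no treatment or altered gene is given in the labels.

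A transplanted tumour is a mixture. The carcinoma cells share a clonal origin, while vessels, fibroblasts, leukocytes, red cells and remnants of the host tissue at the implantation site enter in amounts that can differ from tumour to tumour. Macrophages and neutrophils are usually plentiful in LLC, matrix is made largely by fibroblasts, and interferon gamma from lymphocytes switches on the genes that present antigen. In bulk RNA, fewer cells of a type and less RNA per cell cannot be told apart.

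Array O1 stood apart before any gene was compared. It detected 13402 probes, against 14641 to 15694 on the other 9 arrays of the run, and its median raw signal was 120, against 180.4 to 208. The 35 arrays of the other ages detected 14577 to 17142 probes. Of 5 tested probes of Actb, the cytoskeletal actin, a pair stood at 9.54 and 9.60 (log2) on array O1 and at 7.10 or less on the other 9, while the brightest Actb probe ran only from 14.43 to 14.65 over the run. The part of array O1 in single results was not tested beyond leaving it out, and counts are given with and without it. The run was chosen as one without lung transcripts, so its lung genes are given as a description only. Scgb1a1, Sftpc and Sftpb, which club cells and alveolar type 2 cells secrete, were detected on 0 of the 10 arrays, and 12 of the 15 lung genes were detected on none. Napsa and Ager, the other lung genes present on most arrays, reached at most 8.26 and 6.61 (log2), against 13.37 and 13.30 among the other 44 arrays. All 11 probed genes of B and plasma cells were detected on 0 arrays of the run, and 13 of 16 genes of keratinocytes and skin and 12 of 16 of liver and plasma proteins were detected on none.

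Most transcripts differed little between the tumours. Of 15830 probes detected on at least 3 of the 10 arrays, 93.7% had a standard deviation (SD) under 0.5 log2 units, and the median SD was 0.24. A probe was called hypervariable where its variance exceeded that of probes of like level, by limma's robust variance prior with Benjamini-Hochberg adjustment at 0.05. This called 45 probes, 0.284% of those tested, for 36 genes. At gene level, with the brightest probe for each gene, 0.329% of 10933 genes were called. Without array O1 the count was 70 of 15783, and all 45 were among them. The calls rest on the prior chosen: a prior that ignores the level, or the ordinary prior, called 0 probes, although 627 and 774 probes passed an unadjusted p of 0.05 there, against 943 in the test used here. Leaving out 1 array in turn gave 26 calls (without O2) to 70 (without O1), with 27 without O9.

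Of the 36 called genes 25 stand on at least 1 of the gene lists, among them contractile genes of skeletal muscle, haemoglobins, matrix genes, macrophage genes, genes of antigen presentation, and neutrophil genes and their chemokines. The other 11 stand on none. With the probe of highest SD for each gene, 7 genes were called whichever array was left out (Acta1, Cxcl9, Esm1, Hba-a1, Mmp2, Myl1 and Slco4a1). Tumour O3 held the highest value for 17 of the 45 called probes, tumour O9 for 15, tumour O10 for 9 and tumour O6 for 4. Over all tested probes these tumours were highest in 12.6%, 8.6%, 10.2% and 7.76%. The lowest values lay in tumour O6 for 13 probes and in tumour O7 for 10. Because 9 of the probes belong to Hbb-b1, the order differs by gene: with 1 probe for each of the 36 genes, tumour O9 was highest for 15, tumour O3 for 9, tumour O10 for 8 and tumour O6 for 4, and tumour O7 was lowest for 10 and tumour O6 for 5.

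**Figure D1:**
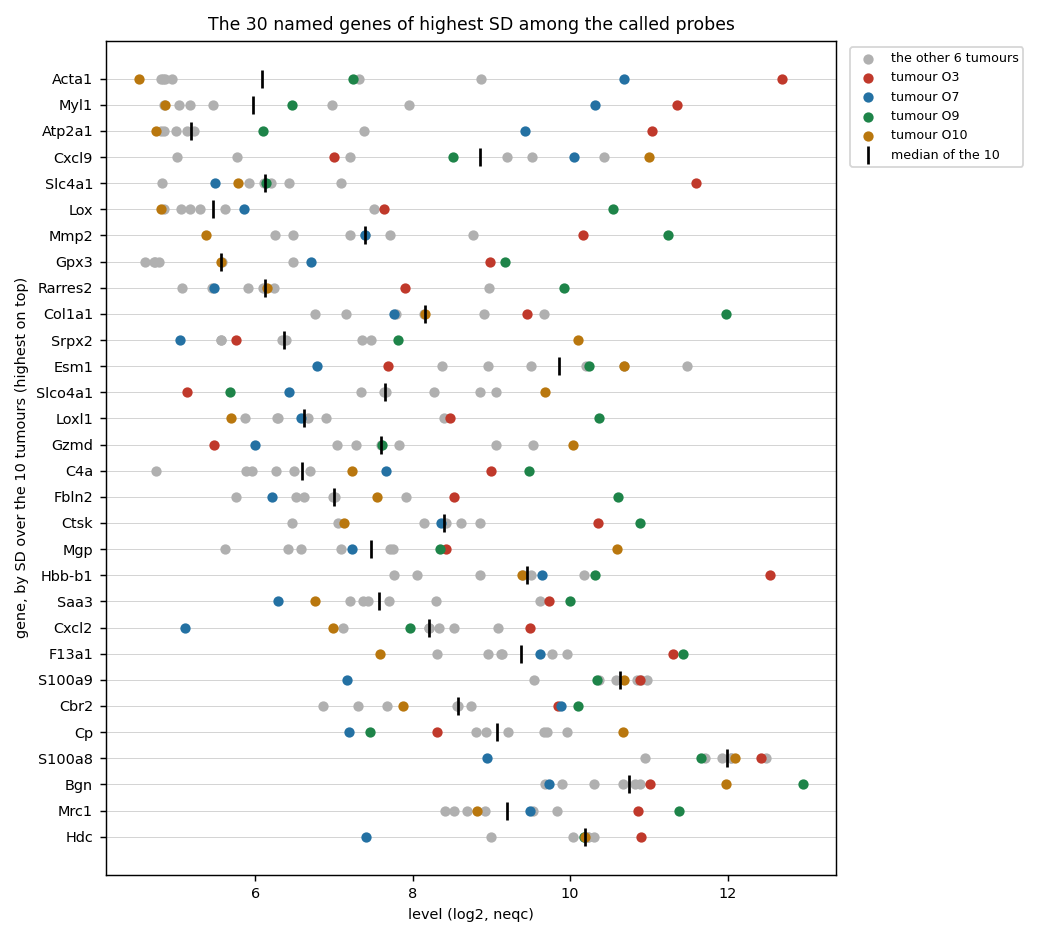
Level (log2, horizontal axis) of the 30 named genes of highest SD among the called probes, ordered by SD; each point is 1 of the 10 tumours, tumours O3, O7, O9 and O10 are coloured, and the bar is the median. Muscle genes are highest in tumours O3 and O7, matrix genes in tumour O9, and S100a9, S100a8, Cxcl2 and Hdc have their lowest point in tumour O7.

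Skeletal muscle genes had the widest spread. Acta1, the skeletal muscle actin, had a lowest level of 4.53 (log2), a median of 6.09 and a highest of 12.69, with an SD of 2.87 (adjusted p = 0.0123, limma) and detection on 5 of 10 arrays. Tumour O3 was the highest, tumour O7 followed at 10.69 and tumour O4 at 8.87, while 5 tumours lay under 5. Myl1, a fast-fibre myosin light chain, ran from 4.84 through a median of 5.97 to 11.36 (SD 2.35, adjusted p = 0.0208), and Atp2a1, the calcium pump of the sarcoplasmic reticulum, from 4.74 through 5.18 to 11.04 (SD 2.22, adjusted p = 0.0208). The order of the tumours was nearly the same for all 3 genes: Spearman rho between them was 0.95 to 0.98 over the 10 arrays. Myl1 was detected on 5 arrays and Atp2a1 on 4, so part of this order lies among undetected values. Of 20 muscle genes listed, 7 were measured and 3 of these were called. All 7 were highest in tumour O3, as were 12.7% of all genes. Tnnc2, a troponin of fast fibres, had an SD of 1.80 and did not pass (adjusted p = 0.0514). Eno3, muscle enolase, had the smallest SD of the 7, at 0.22. Without tumour O3, Acta1 and Myl1 were still called, and Atp2a1 had an adjusted p of 0.0868. Of the 13 members not measured, 3 were detected on no array, and Ckm, Tnnt3 and Ttn, a creatine kinase, a troponin and titin, were detected on 2. The desmin gene Des, active in smooth and skeletal muscle alike, had its 2 highest levels in the same tumours, 8.89 in tumour O3 and 8.51 in tumour O7, with 6.78 or less elsewhere (adjusted p = 0.114). Outside all lists, the genes whose order was closest to the muscle score among 8500 screened were Rilp (rho 0.95), a lysosomal adaptor, Rep15 (0.94), a Rab15 effector, and Zswim7 (0.93), a recombination factor, with SDs of 0.26 to 0.37.

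Red cell genes set tumour O3 apart more sharply. Slc4a1, the anion exchanger of the red cell membrane, ran from 4.81 in tumour O6 through a median of 6.13 to 11.60 in tumour O3, and the next tumour stood at 7.09 (SD 1.87, adjusted p = 0.0242). This call rests on tumour O3: without it the SD was 0.63 and the adjusted p 0.880. The alpha globin gene Hba-a1 ran from 11.10 through 12.69 to 14.59 (SD 0.97, adjusted p = 0.0208). Haemoglobin probes may also read near-identical copies of their gene. Of 10 tested probes of Hbb-b1, beta globin, 9 were called, with SDs of 0.78 to 1.33 (the other had an adjusted p of 0.063), and the probe of highest SD had an adjusted p of 0.0797 without tumour O3. All 5 measured red cell genes were highest in tumour O3 and lowest in tumour O6 (12.7% and 7.15% of all genes were), and 3 of the 5 were called. The mean level of the list was 12.19 in tumour O3, against 7.53 to 9.50 in the other 9. The median rho between pairs of members was 0.87, but Slc4a1 followed the globins less closely. Its rho was 0.48 with Hba-a1 and 0.61 with the Hbb-b1 probe of highest SD. Alas2, the erythroid enzyme of haem synthesis, had an SD of 1.38 and did not pass (adjusted p = 0.0773). Prelp, a matrix proteoglycan, was among the genes outside the lists with an order most like the red cell score (rho 0.92).

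Matrix genes had their highest level in tumour O9. Lox, the lysyl oxidase that cross-links collagen, ran from 4.81 through a median of 5.46 to 10.54, the next tumour standing at 7.64 (SD 1.83, adjusted p = 0.0371, detected on 3 arrays). Mmp2, a gelatinase, ran from 5.37 through 7.40 to 11.25 (SD 1.80, adjusted p = 0.0208), with tumour O3 second at 10.16. Col1a1, a chain of type I collagen, ran from 6.76 in array O1 through 8.15 to 11.98 (SD 1.51, adjusted p = 0.0208, and 0.0137 without array O1). Tumour O8 was second for Col1a1, at 9.66. Loxl1, a paralogue of Lox, Fbln2, a fibulin, and Bgn, biglycan, were called as well (SD 1.47, 1.40 and 1.03), each highest in tumour O9. Without tumour O3, O8 or O9, Lox was not tested because too few arrays detected it. Without tumour O9, Mmp2 was still called, and Col1a1, Loxl1, Fbln2 and Bgn were not (adjusted p = 0.128, 0.226, 0.334 and 0.128). Within the list of collagens and matrix 19 of 22 genes were measured, 5 were called, 8 were highest in tumour O9 and 4 were lowest there, where 8.62% and 10.1% of all genes were highest and lowest. The median rho between members was 0.27, and Lum, lumican, was among the 4 lowest in tumour O9, at 11.22 against a median of 12.72 over the run. Srpx2, a secreted sushi-repeat protein, and Mgp, matrix Gla protein, had another leader, tumour O10, at 10.10 and 10.59, against 7.82 and 8.43 in the next tumour (SD 1.50 and 1.37, adjusted p = 0.0462 and 0.0385); without tumour O10 neither was called (adjusted p = 0.267 and 0.169). Col1a2, the partner chain of Col1a1, had its highest value, 8.87, in tumour O9 too, but did not pass (SD 1.11, adjusted p = 0.209).

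The 2 called genes of the macrophage list were also highest in tumour O9. Mrc1, the mannose receptor of tissue macrophages, ran from 8.40 through 9.20 to 11.38 (SD 1.00, adjusted p = 0.0447), and Ctsk, cathepsin K, from 6.46 through 8.39 to 10.89 (SD 1.40, adjusted p = 0.0239). F13a1, coagulation factor XIII A, which tissue macrophages make, stands on no list and ran from 7.59 through 9.38 to 11.44 (SD 1.20, adjusted p = 0.0239). For all 3 genes tumour O3 was second, at 10.86, 10.36 and 11.31. Without tumour O9 none of the 3 passed (adjusted p = 0.150, 0.0631 and 0.0554). Of 19 macrophage genes 16 were measured and 2 were called. Of the 16, 7 were highest in tumour O7 and 6 in tumour O9 (11.7% and 8.62% of all genes were). In tumour O6 14 were lowest, as were 7.15% of all genes. The complement genes C1qa and C1qc had SDs of 0.55 and 0.59 and did not pass. The list level was 8.92 in tumour O6, had a median of 9.85 and was 10.42 in tumour O9, but under median scaling without background correction tumour O3 was the highest and array O1 the lowest. C4a, a complement component whose probes may read the near-identical C4b, ran from 4.74 in array O1 through 6.59 to 9.48 (SD 1.45, adjusted p = 0.0449, and 0.142 without tumour O9). Gpx3, a secreted glutathione peroxidase, ran from 4.61 through 5.57 to 9.17 with the same leader, tumour O3 second at 8.98 (SD 1.72, adjusted p = 0.0471). Mast cell proteases Mcpt4 and Cpa3 reached 8.37 and 8.07 in tumour O9, against medians of 4.81 and 5.13 over the run, and did not pass (adjusted p = 0.242 and 0.236). Hdc, the enzyme that makes histamine and stands on the same list, did pass (SD 0.98, adjusted p = 0.0428, and 0.437 without tumour O7), but its pattern was another one: it was lowest in tumour O7, at 7.41, against a median of 10.18. Lyve1, a receptor of lymphatic vessels and of some tissue macrophages, had an SD of 1.61 and its highest level, 8.73, in tumour O9 (adjusted p = 0.0504).

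Genes of MHC class II presentation kept a like order over the tumours, with its highest level in tumour O10. Cd74, the invariant chain, ran from 9.24 in array O1 through a median of 10.35 to 12.60 in tumour O10 (SD 0.93, adjusted p = 0.0416, and 0.0379 without array O1), with 2 of 3 tested probes called. H2-Ab1, a class II beta chain, ran from 9.19 through 10.03 to 12.16 (SD 0.90, adjusted p = 0.0473), with 1 of 3 tested probes called (adjusted p of the others 0.0563 and 0.0727). Both calls rest on tumour O10: without it the SDs were 0.65 and 0.64 (adjusted p = 0.155 and 0.169). Tumours O5 and O7 held the next 2 places for both genes, and rho between the 2 genes was 0.99. H2-Aa and H2-Eb1, the other classical chains, had SDs of 0.98 and 0.92 and did not pass (adjusted p = 0.103 and 0.0504). All 9 listed genes were measured, and 8 were highest in tumour O10, as were 9.57% of all genes. On array O1, which was lowest for 21.8% of all genes, 7 were lowest. The median rho between members was 0.84, and 0.83 without array O1. Ciita, the transactivator of class II genes, ran from 4.69 through 5.47 to 6.92 and was also highest in tumour O10 (SD 0.71, adjusted p = 0.874). Nearest to the class II score outside the lists were Edc4 (rho 0.94), an mRNA decapping scaffold, Selplg (0.93), the selectin ligand of leukocytes, and Csf2ra (0.92), the receptor chain for GM-CSF.

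The promoters of class II genes are shown because these genes kept a like order and share a known control element, the Y box, a CCAAT box in reverse. Sequences are from RefSeq (GRCm38.p6), 250 bases before to 50 bases after the gene's start, 5′ to 3′ on the gene's strand; capitals mark CTGATTGG, searched on both strands. Of 7 class II genes looked up 6 were in the table and 3 held the letters (H2-Aa, H2-Eb1 and H2-Oa), as did 4.1% of all 32851 promoters. The missing gene was H2-Ab1, the class II chain that was called, and Cd74 was not looked up. H2-Aa and H2-Eb1 were not called, and H2-Oa does not stand on the class II list. H2-Aa lies at chr17:34287774-34288073 (minus strand) and H2-Eb1 at chr17:34305617-34305916 (plus strand).
H2-Aa: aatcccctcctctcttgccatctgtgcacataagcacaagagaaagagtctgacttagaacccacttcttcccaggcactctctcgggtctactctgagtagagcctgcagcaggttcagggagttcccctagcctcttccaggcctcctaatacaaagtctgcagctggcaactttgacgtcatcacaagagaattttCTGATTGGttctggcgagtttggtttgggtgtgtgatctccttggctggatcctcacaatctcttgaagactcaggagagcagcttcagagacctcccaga
H2-Eb1: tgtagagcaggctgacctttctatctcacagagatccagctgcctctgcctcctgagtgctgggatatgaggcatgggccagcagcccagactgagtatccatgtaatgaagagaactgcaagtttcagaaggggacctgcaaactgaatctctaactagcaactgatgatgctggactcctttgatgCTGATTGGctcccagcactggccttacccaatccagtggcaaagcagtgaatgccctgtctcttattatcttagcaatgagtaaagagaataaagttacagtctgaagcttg

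Genes that respond to interferon gamma showed a related order. Cxcl9, a chemokine that draws T cells, ran from 5.01 in tumour O8 through a median of 8.86 to 11.01 in tumour O10 (SD 2.04, adjusted p = 0.0171), and it was detected on 8 arrays. Tumours O5 and O7 followed at 10.43 and 10.05, and array O1 stood at 5.77. Of the 12 measured genes of the list 1 was called, Cxcl9. Gbp2, a guanylate-binding protein, ran from 9.67 to 12.17 (SD 0.80, adjusted p = 0.0626), and Igtp, an immunity-related GTPase, from 7.89 to 10.57 (SD 0.81, adjusted p = 0.117). Both were highest in tumour O10, as were 9 of the 12 genes and 9.57% of all genes. MHC class I genes did the same: 12 of 15 measured genes were highest in tumour O10, where the list level was 10.04 against 8.73 to 9.36 in the other 9 tumours, and 0 of 15 were called. The immunoproteasome subunit Psmb9 had an SD of 0.75 and Tap1, the peptide transporter, 0.73. Cd274, which encodes the checkpoint ligand PD-L1, ran from 8.97 in tumour O3 through 9.52 to 9.98 in tumour O10 (SD 0.34, adjusted p = 0.892). Genes of the type I interferon response had another leader, tumour O7, which was highest for 9 of 19 measured members and 11.7% of all genes. Of the 19, 0 were called (Oasl2, an oligoadenylate synthetase-like protein, had an SD of 0.55 and an adjusted p of 0.418).

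Promoters of a pair of genes from these lists are again from RefSeq (GRCm38.p6) with the same window. They were searched for the interferon-stimulated response element, a known control element of interferon-stimulated genes. Capitals mark its letters on either strand, which 3.44% of all promoters hold. Gbp2 lies at chr3:142620413-142620712 (plus strand), and B2m, the light chain of class I molecules, at chr2:122147437-122147736 (plus strand).
Gbp2: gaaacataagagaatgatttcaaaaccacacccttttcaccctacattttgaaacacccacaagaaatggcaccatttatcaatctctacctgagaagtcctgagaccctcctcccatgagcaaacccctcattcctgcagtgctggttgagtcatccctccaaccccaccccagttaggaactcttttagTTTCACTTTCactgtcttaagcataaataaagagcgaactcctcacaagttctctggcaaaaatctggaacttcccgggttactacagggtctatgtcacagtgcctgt
B2m: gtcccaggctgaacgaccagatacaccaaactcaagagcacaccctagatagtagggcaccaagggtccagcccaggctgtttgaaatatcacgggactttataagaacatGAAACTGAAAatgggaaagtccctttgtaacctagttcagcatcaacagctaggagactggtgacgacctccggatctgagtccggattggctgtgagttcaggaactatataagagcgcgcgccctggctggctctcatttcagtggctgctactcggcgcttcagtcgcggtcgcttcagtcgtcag

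Neutrophil genes and the chemokines that draw neutrophils were low in 1 tumour. S100a9, a subunit of calprotectin and abundant in neutrophils, ran from 7.16 in tumour O7 through a median of 10.63 to 10.97 (SD 1.16, adjusted p = 0.0226), and the next lowest tumour stood at 9.54. Its partner S100a8 ran from 8.95 in tumour O7 through 11.99 to 12.49 (SD 1.04, adjusted p = 0.0226). Without tumour O7 neither gene was called, and their SDs were 0.45 and 0.46 (adjusted p = 0.507 and 0.352). Of 8 measured neutrophil genes 7 were lowest in tumour O7, and the list level there was 6.90, against 8.11 to 9.23 in the other 9 tumours. The exception was Mmp9, a gelatinase, which was highest in tumours O9 and O3, at 10.52 and 10.06. The ligands of the neutrophil receptor Cxcr2 shared the low value: Cxcl1 ran from 9.78 in tumour O7 through 12.34 to 13.03 (SD 0.93, adjusted p = 0.0242, and an SD of 0.43 with an adjusted p of 0.352 without tumour O7), and Cxcl2 from 5.11 in tumour O7 through 8.21 to 9.49 (SD 1.24, adjusted p = 0.0447, and 0.208 without tumour O7). The other tested probe of Cxcl2 followed it only in part (rho 0.45 between the 2 probes). Il1b, which encodes an inflammatory cytokine of myeloid cells, was also lowest in tumour O7, at 7.74 against a median of 9.64 (adjusted p = 0.117). Of 14 measured genes of NF-kB and inflammatory cytokines 11 were lowest in that tumour, which was lowest for 10.2% of all genes. The macrophage list, by contrast, was second highest there, at 10.25. Nearest to the neutrophil score outside the lists were Ankrd50 and Bnip3l (rho 0.92 each), the second a receptor of mitophagy, and Per2 (0.90), a clock gene.

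The chemokine promoters are shown because Cxcl1 and Cxcl2 kept nearly the same order over the tumours (rho 0.93) and are known targets of NF-kB. Capitals mark a decameric NF-kB site, searched on both strands in the same RefSeq windows (GRCm38.p6); 29 of 32851 promoters hold it, 0.0883%. A match describes the letters and does not show binding. Cxcl1 lies at chr5:90890995-90891294 and Cxcl2 at chr5:90903649-90903948, both on the plus strand.
Cxcl1: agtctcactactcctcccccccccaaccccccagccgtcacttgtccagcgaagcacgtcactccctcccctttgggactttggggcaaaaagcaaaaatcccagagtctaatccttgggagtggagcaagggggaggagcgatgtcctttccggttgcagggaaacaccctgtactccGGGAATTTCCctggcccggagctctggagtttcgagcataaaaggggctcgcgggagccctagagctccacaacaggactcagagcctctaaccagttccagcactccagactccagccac
Cxcl2: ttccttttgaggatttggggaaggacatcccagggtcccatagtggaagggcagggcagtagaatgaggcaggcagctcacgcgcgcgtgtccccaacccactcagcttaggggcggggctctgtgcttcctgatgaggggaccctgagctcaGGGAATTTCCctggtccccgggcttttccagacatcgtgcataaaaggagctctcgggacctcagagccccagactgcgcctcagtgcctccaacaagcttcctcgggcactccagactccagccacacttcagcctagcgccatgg

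Tumour O7 was also low for vessel and hypoxia genes. Esm1, endocan, a product of sprouting endothelium, ran from 6.79 in tumour O7 through a median of 9.85 to 11.49 in tumour O6 (SD 1.49, adjusted p = 0.0208). It was called whichever array was left out. Of 15 measured endothelial genes it was the 1 called. Of the 15, 8 were highest in tumour O6 and 8 were lowest in tumour O7 (7.93% and 10.2% of all genes were). Cldn5, a tight junction claudin, was 6.73 in tumour O7 and 8.24 to 9.54 elsewhere (adjusted p = 0.112), and Cdh5, the endothelial cadherin, ran from 6.78 to 8.40 (adjusted p = 0.567). Ccn2, a matrix-cell signal protein, followed Esm1 (rho 0.89) and ran from 7.96 in tumour O7 through 10.05 to 11.12 in tumour O6 (SD 0.92, adjusted p = 0.0473, and an SD of 0.60 with an adjusted p of 0.25 without tumour O7). In the hypoxia list 15 of 19 measured genes were lowest in tumour O7 and 0 were called. Car9, carbonic anhydrase 9, ran from 6.21 in tumour O7 to 9.91 in tumour O9 (SD 1.08, adjusted p = 0.063). Vegfa, the main growth factor of vessels, ran from 8.60 in tumour O7 through 10.20 to 10.62 in tumour O6 (SD 0.64, adjusted p = 0.168). Glycolysis genes differed by less, with a median SD of 0.21, and 12 of 16 were lowest in tumour O7.

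Slco4a1, an organic anion transporter, Gzmd, a granzyme whose probe may read near-identical family members, and Cp, ceruloplasmin, kept company with Esm1 and Ccn2. Slco4a1 ran from 5.13 in tumour O3 through 7.65 to 9.69 in tumour O10 (SD 1.48, adjusted p = 0.0268), and Gzmd from 5.48 in tumour O3 through 7.60 to 10.04 in tumour O10 (SD 1.46, adjusted p = 0.0268). The other tested probe of Gzmd was not called (SD 0.55, adjusted p = 0.958). The order of Slco4a1 and Gzmd ran against that of the muscle genes: rho with Acta1 was -0.89 for Slco4a1 and -0.90 for Gzmd. With Myl1 rho was -0.82 and -0.76, and with Atp2a1 -0.88 and -0.76. Acta1 was detected on 5 of 10 arrays, so part of its order lies among undetected values. Cp was highest in tumour O10 too, at 10.67, and lowest in tumour O7, at 7.19 (SD 1.10, adjusted p = 0.0414, and 0.0597 without tumour O10). Of 4 tested probes of Cp 1 was called (adjusted p of the others 0.0949, 0.221 and 0.831).

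The 35 called genes with a name were grouped by average linkage of Spearman rho over the 10 arrays. Groups ended at an average rho of 0.5, which gave 7 groups. Single pairs within a group could lie lower, down to 0.24 in the group of 12 genes. The muscle genes formed 1 group (median rho 0.95). Matrix genes split between a group of Col1a1, Bgn, Fbln2, Rarres2, Srpx2 and Mgp (0.70) and a larger one of 12 genes (0.71). In the larger group Lox, Mmp2 and Loxl1 stood with Mrc1 and Ctsk of the macrophage list, F13a1 and the globins. Cxcl1, Cxcl2, S100a8 and S100a9 formed another (0.71), as did Cxcl9, Cd74 and H2-Ab1 (0.81). Slc4a1 stood apart from the globins, in a group with Hdc (0.66), and Esm1, Slco4a1, Gzmd, Cp and Ccn2 formed the last (0.62). These genes were chosen for their variance in the same arrays, so the values describe the run and carry no test. Of 595 pairs 26 had a rho of at least 0.8 and 6 of -0.8 or below, and 558 kept their sign without array O1. Each of the 10 called genes with several tested probes had at least 1 probe that was not called. The lowest rho between the probes of such a gene was over 0.8 for 6 of the 10. For Rarres2, the chemerin gene, it was -0.21.

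**Figure D2:**
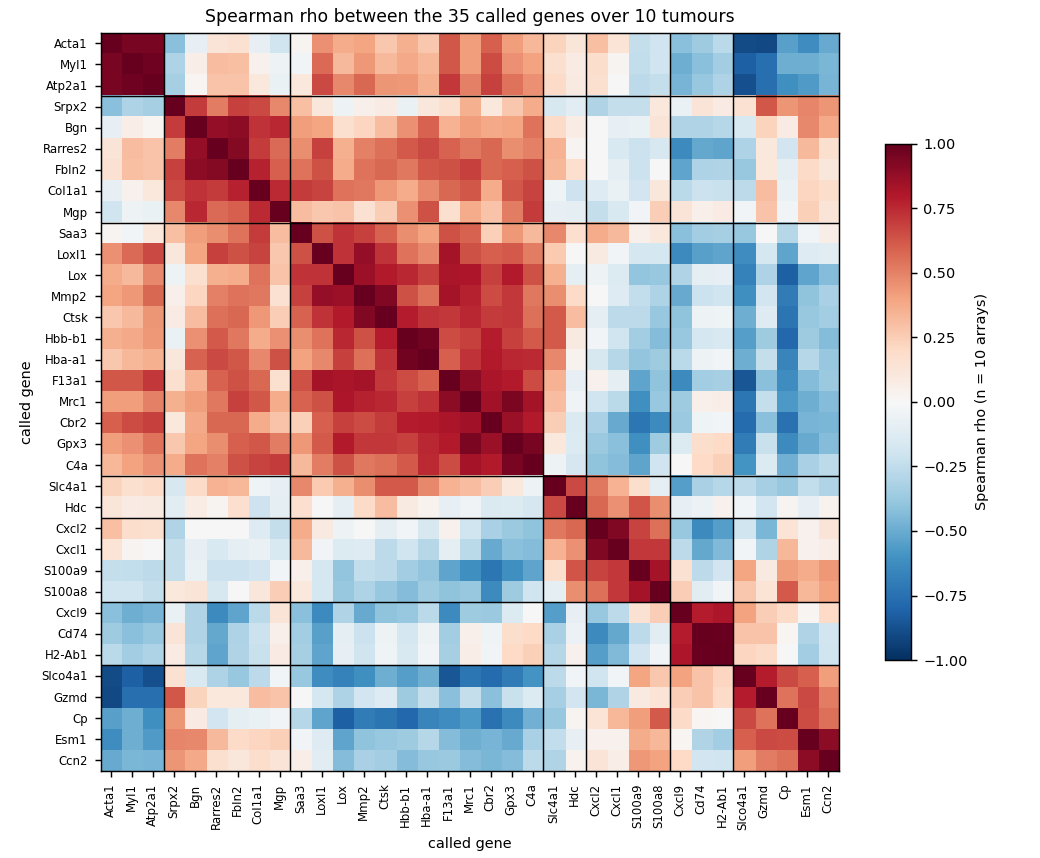
Spearman rho (colour, -1 to 1) between the 35 named called genes over the 10 tumours, both axes in the same gene order; lines separate the 7 groups. The muscle genes (upper left) have their lowest values against Slco4a1 and Gzmd (-0.89 and -0.90 with Acta1), and Cd74 with H2-Ab1 has the highest (0.99).

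Ribosomal protein genes had the lowest median SD of the 36 lists, 0.095, and their mean level lay between 13.43 and 13.54. Oxidative phosphorylation had a median SD of 0.15 and the mitosis genes 0.19, against 0.232 over all genes. The prior SD fell with level: it was 0.344 for a Gpx3 probe of mean level 6.13 and 0.134 for an Hbb-b1 probe of mean level 13.09. These lists were not compared with genes of like level. Mki67, the proliferation marker, ran from 9.77 in tumour O9 through 9.93 to 10.29 in tumour O2 (SD 0.14, adjusted p = 0.991). Tumour O2 was the highest for 11 of 19 measured mitosis genes and for 7.65% of all genes. Tumour O3 was the lowest for 14 of 20 genes of S phase and for 14.2% of all genes. With median scaling and no background correction the S phase list was lowest on array O1. Gapdh, a glycolytic enzyme often used as a reference, ran from 13.45 through 13.75 to 13.96. Tgfb1, a growth factor with wide effects on stroma, ran from 8.93 through 9.54 to 9.78 (SD 0.29, adjusted p = 0.991). The oxidative stress list stood apart on array O1, at 10.21 against 9.46 to 9.87 in the other 9, and 13 of its 20 genes were highest there, where 19.5% of all genes were highest. This rests on the scaling: under median scaling without background correction the list was lowest on array O1 and highest in tumour O2.

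**Figure D3:**
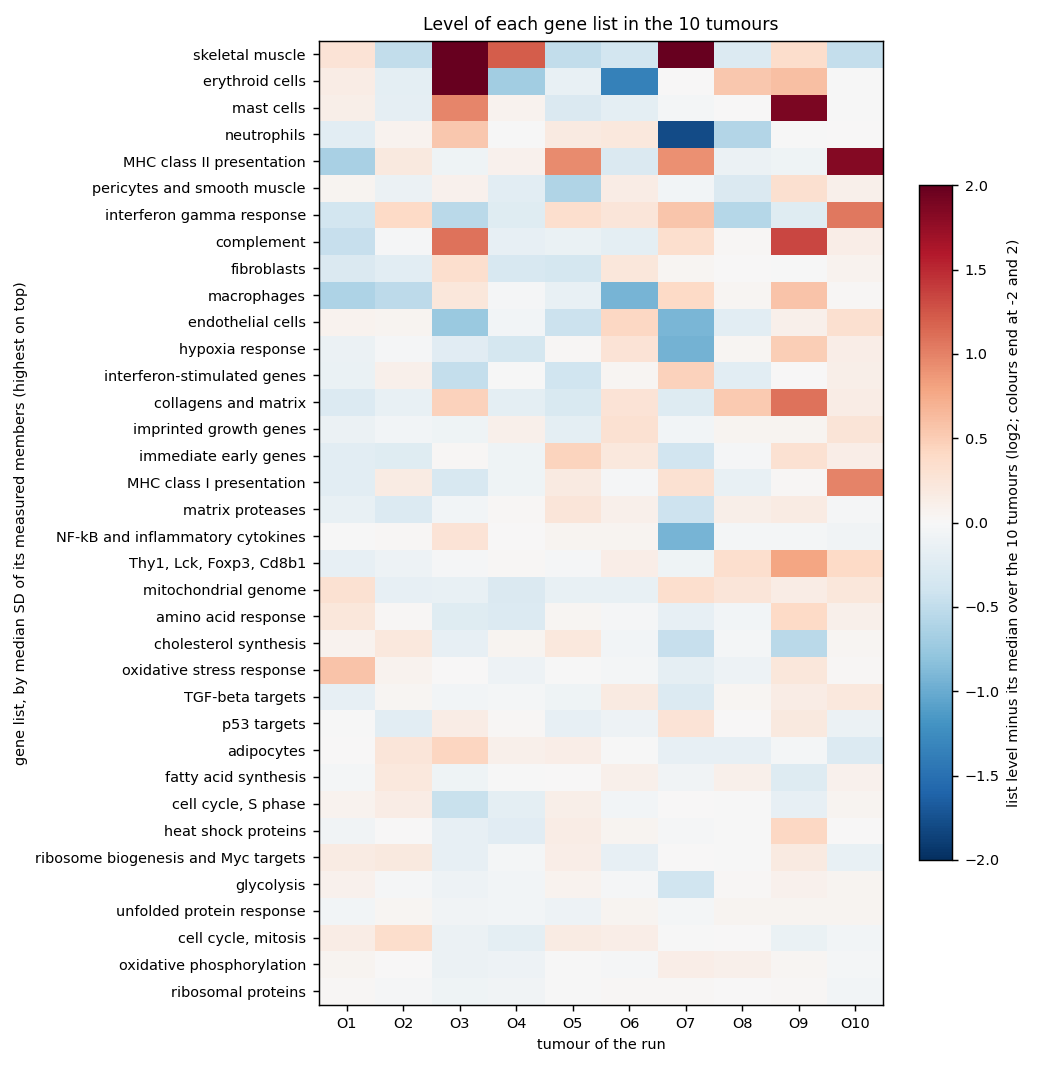
Mean level of each of 36 gene lists minus its median over the run (log2; colours end at -2 and 2), with the 10 tumours along the horizontal axis and lists ordered by the median SD of their members. Tumour O3 is highest for muscle and red cells, tumour O7 lowest for neutrophils and NF-kB, tumour O9 highest for collagens and complement, and tumour O10 highest for MHC classes I and II.

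How closely the members of a list followed each other was measured as the median Spearman rho over its pairs of genes. It was 0.006 over all genes, and at least 0.5 for 11 of 36 lists (12 without array O1, and 10 in the arrays of the other ages). Red cells (0.87) and MHC class II (0.84) led, followed by the mitochondrial genome (0.64), endothelium (0.62) and macrophages (0.59). In the mast cell list a wide spread came with little common order (median SD 0.98, median rho 0.02). Mcpt4 and Cpa3 had low medians over the run, so part of their order lies among low values. Hdc, of the same list, had a rho of 0.63 with the neutrophil gene S100a9. The T cell list was measured only through Thy1, Lck, Foxp3 and Cd8b1, and 14 T cell genes, the CD3 chains among them, were detected on no array, so it is named below by these 4 genes. The list of pericytes and smooth muscle was measured only through Cspg4, Acta2, Des, Abcc9 and Mcam, with a median rho of 0.18. Of its other members, Rgs5 and Pdgfrb were detected on 2 arrays and Tagln, Myh11 and Cnn1 on 0. It too is named below by its 5 measured genes.

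**Figure D4:**
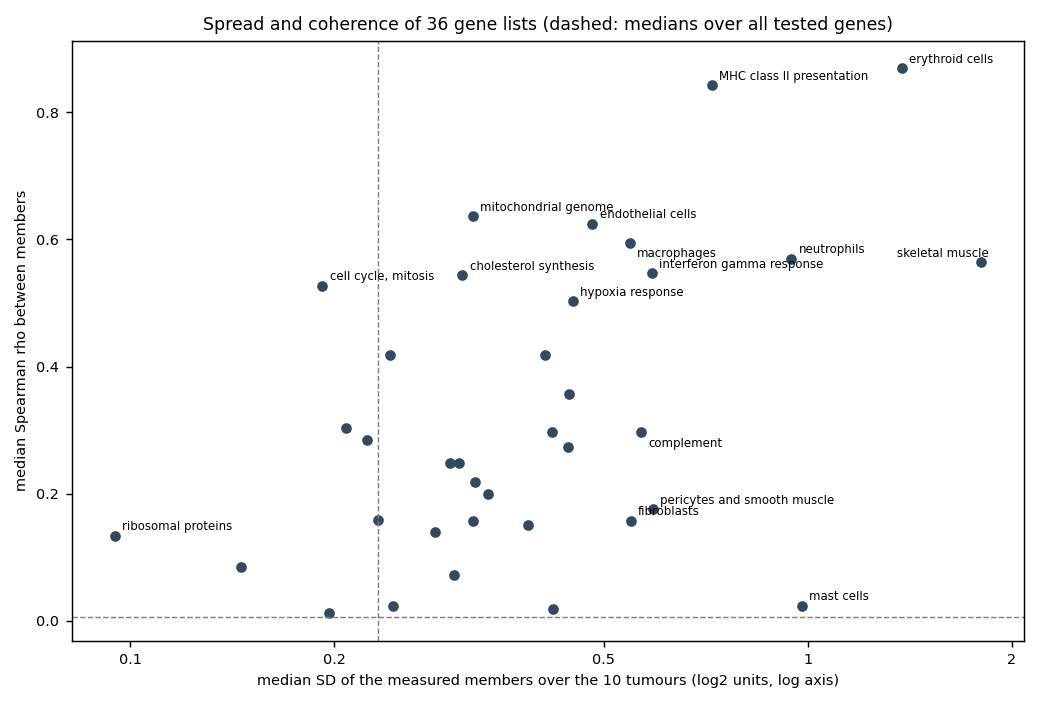
Median SD of the measured members (log2 units, log axis) against the median Spearman rho between members for 36 gene lists over the 10 tumours; dashed lines are the medians over all tested genes. Red cell and MHC class II genes lie at the upper right (rho 0.87 and 0.84), ribosomal proteins at the far left (SD 0.095), and mast cell genes at the lower right.

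Each list was then scored as the mean z-value of its members, and all 630 pairs of 36 scores were compared by Spearman rho with 100000 permutations, two-sided. After Benjamini-Hochberg adjustment 0% of the pairs passed (smallest adjusted p = 0.356). At an unadjusted p under 0.05 there were 49 pairs, 7.78% of all, of which 36 were positive and 13 negative. Without array O1 there were 0 and 54. The pairs below are the 12 of lowest p, named because none was called. They were picked as the lowest of 630 and carry no call.

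Among these 12, the immune pairs also held in the 35 arrays of the other ages, each centred on its own run. MHC class II and class I had a rho of 0.84 (permutation p = 0.00372, adjusted p = 0.356, Pearson r 0.90 with permutation p = 0.00102), and r was 0.64 without tumours O7 and O10, the 2 farthest. The same pair had a rho of 0.91 in the other ages (permutation p adjusted over the 12 pairs 4e-05). Interferon gamma response and MHC class I had a rho of 0.83 (permutation p = 0.00509, r 0.90) against 0.80 in the other ages. Interferon-stimulated genes and the interferon gamma response had a rho of 0.83 (permutation p = 0.00456, r 0.66) against 0.89, and r was 0.51 without tumours O3 and O7. Endothelial genes and the Cspg4, Acta2, Des, Abcc9 and Mcam score had a rho of 0.81 (permutation p = 0.00701, r 0.76), against 0.50 in the other ages. Glycolysis and the amino acid response had 0.87 (permutation p = 0.00228, r 0.58), against 0.53. In the other ages both had an adjusted permutation p of 0.00698. The r of the last pair was 0.96 without tumours O5 and O7.

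The other 7 pairs did not pass in the other ages. The Thy1, Lck, Foxp3 and Cd8b1 score and heat shock proteins had the lowest p of the run (rho 0.90, permutation p = 0.0008, r 0.86), with a rho of -0.11 in the other ages (adjusted p = 0.628). Muscle followed p53 targets (0.88, permutation p = 0.00147, r 0.70) and ran against S phase (-0.85, permutation p = 0.0031, r -0.80), with 0.14 and -0.02 in the other ages. The muscle list level lay between 5.64 and 5.86 in tumours O2, O5, O6, O8 and O10, so part of the muscle order lies among low values. The p53 targets ran against cholesterol synthesis (-0.87, permutation p = 0.00217, r -0.93) and fatty acid synthesis (-0.83, permutation p = 0.00457, r -0.81), with -0.09 and 0.22 in the other ages. Between single runs of the other ages these values ranged from -0.85 to 0.55 and from -0.47 to 0.86. In the run both turned positive when arrays were scaled by the median with no background correction, to 0.26 and 0.38. TGF-beta targets followed hypoxia genes (0.79, permutation p = 0.00892, r 0.74) and collagens (0.79, permutation p = 0.00939, r 0.80), against 0.14 and 0.19 in the other ages. Whether the run differs from the other ages in any pair was not tested.

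**Figure D5:**
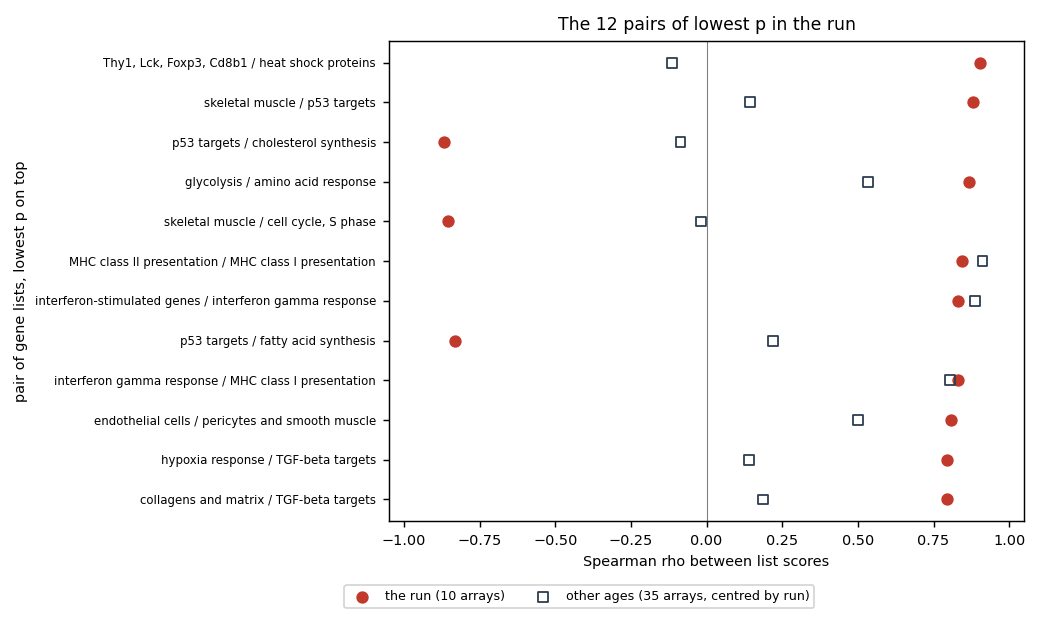
Spearman rho between list scores for the 12 pairs of lowest p; filled circles are the 10 arrays of the run, open squares the 35 arrays of the other ages centred by run. The T cell row is the score of Thy1, Lck, Foxp3 and Cd8b1, and the pericyte row uses Cspg4, Acta2, Des, Abcc9 and Mcam. The 3 interferon and MHC pairs lie between 0.80 and 0.91 in both sets.

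The scores were also set against measures of the arrays. Of the relations between the 36 scores and the number of detected probes, the median raw signal or the array number, 0 passed the adjustment and 5 had an unadjusted p under 0.05. The Thy1, Lck, Foxp3 and Cd8b1 score had a rho of 0.85 with the array number (permutation p = 0.00316, adjusted p = 0.341, r 0.80), and heat shock proteins had 0.72 (permutation p = 0.0238, r 0.64). With the array number too, adipocyte genes had -0.78 (permutation p = 0.0106) and macrophage genes 0.65 (permutation p = 0.0492). The Cspg4, Acta2, Des, Abcc9 and Mcam score had -0.77 with the median raw signal (permutation p = 0.0124). Its partner in the pairs above, endothelium, had -0.58 with that signal (permutation p = 0.0881). The part of these array measures in the correlations between scores was not tested.

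The run did not spread more widely than the other ages for most genes. Absolute deviations from the own run's mean had a median of 0.195 in the run and 0.227 in the other ages, and 31.5% of probes were wider in the run by value. In limma 1 of 15830 probes was called wider (0.00632%) and 0 narrower (0%), with 284 and 883 at an unadjusted p under 0.05. The wider one was a probe of Stard9, a mitotic kinesin, with a mean deviation of 0.54 in the run and 0.17 in the other ages (difference 0.37, SE 0.063, adjusted p = 0.00596). The gene's other 2 probes had differences of -0.04 each, and the call was lost under quantile normalization, median scaling and the processed values (adjusted p = 0.135, 0.733 and 0.183). Against the other old arrays its difference was -0.047. Of the 45 hypervariable probes 33 had a higher SD in the run than in the other ages. By absolute deviation 33 were wider too, against 31.5% of all probes. These 45 were chosen for their variance in this run, which favours such a count, so it carries no test. Of the 45, 44 were among the 500 probes of highest SD in the other ages, out of 15830. Over all tested probes rho between the SDs of the run and of the other ages was 0.70. Run and host age cannot be told apart in this comparison, because no other age shares the run's numbers.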

How the data were processed

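Total RNA of 54 LLC tumours was measured on Illumina Mouse WG-6 arrays. The deposited raw table holds, per the file headers, a bead intensity and a detection p-value for each of 45281 probes and array. The deposited processed table holds intensities that the authors, by the series' design text, corrected with housekeeping genes and quantile normalized. Raw columns carry an age group and an array number, whose order named the tumours here. Arrays count no reads, and precision is set by how many were run.

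Raw values were processed with neqc in limma 3.58.1 (R 4.3.3) over all 54 arrays, with an offset of 16, and given as log2. Probes with a detection p under 0.01 on at least 3 of the 10 arrays were tested. Hypervariability came from an intercept-only fit and a robust prior variance with a trend on mean level. List levels and scores used the brightest probe of each gene. Lists with at least 4 measured genes were scored. Spread against the other ages was tested with limma on absolute deviations. Symbols were updated from RefSeq (GRCm38.p6): 27740 were current, 8036 replaced and 9505 kept. The members and lists were chosen with earlier results of these data known. The text names the 30 called genes of highest SD, up to 4 members a list of highest SD, the 3 genes nearest to each of 6 scores, 6 fixed genes, and 12 pairs of lists; that rule asked for called pairs, and there were 0. Genes named beyond it (Eno3, Lum, Ciita, Mmp9, Col1a2, C1qa, B2m, Stard9 and the like) were chosen after their values were seen. The procedure was tested on simulated data. Other normalizations, filters, priors and scores were tried, the processed values were used, and each array was left out in turn.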

Additional observations from a re-analysis of the deposited data

Results flagged for a closer look

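Of 74 sets of 10 values examined (list levels, named genes and array measures), 13 held a highest or lowest tumour whose gap to the nearest other one, as a share of the whole range, exceeded Dixon's critical value for 10 samples. Chance gives this in about 1 in 20 sets, but many sets are genes named for their high SD in these same arrays, which 1 distant tumour raises, so the 2 rates cannot be compared. Tumour O3 was far above the others for the red cell list (gap share 0.579) and for Slc4a1 (0.664). Tumour O7 was far below the others for the neutrophil list (0.518), S100a9 (0.624), S100a8 (0.564), the NF-kB list (0.719), the glycolysis list (0.599) and Gapdh (0.53). Tumour O10 was far above for MHC class I (0.521), tumour O9 for Lox (0.506) and tumour O2 for Mki67 (0.486). Array O1 was far below the other 9 in detected probes (0.541) and in median raw signal (0.69).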

How the results depend on the processing

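The 45 hypervariable probes became 86 under quantile normalization without background correction, 284 under median scaling, 85 with the authors' processed values, 28 when detection on every array was required, 76 when 1 array was enough, and 0 under a prior without a trend or an ordinary prior. Leaving out 1 array gave 26 to 70. Lists with a median rho of at least 0.5 (11) became 20 under median scaling, and 7 (without O7) to 12 when 1 array was left out; these coherence alternatives were chosen after seeing the data. Probes wider in the run (1) became 0 under quantile normalization, median scaling, the processed values or detection on every array. Against the other old arrays 7 were wider and 701 narrower, and the Stard9 difference was -0.047. Leaving out 1 array gave 1 to 3 wider and 0 to 1 narrower. The correlation of p53 targets with cholesterol synthesis turned to 0.26 and with fatty acid synthesis to 0.38 under median scaling. Over the alternatives, the Thy1, Lck, Foxp3 and Cd8b1 score with heat shock proteins had a lowest rho of 0.43. Muscle with S phase weakened to -0.10. The cause of these changes was not tested. The count of called programme pairs stayed 0 under every alternative run. For the SDs of the 30 named genes, 401 values kept their call and 119 lost it. No paired analysis was possible because the raw columns carry no replicate number.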
